A study of Mus musculus with 12 samples.

Results

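The IGF axis genes described here are 9 rows of the deposited tables, taken by gene name: the ligand gene Igf1, the receptor genes Igf1r and Insr, and the binding protein genes Igfbp2, Igfbp3, Igfbp4, Igfbp5, Igfbp6 and Igfbp7. They are 9 of 47643 genes, each found once in the count table and once in the TPM table (a level per transcript length on a fixed library total), and all 9 passed the filter on low counts. The libraries are poly(A) RNA from pieces of pancreatic tumor grown from KPC4662, a mouse pancreatic ductal adenocarcinoma line, and all 12 share that line. The Young tumor group holds 6 libraries and the Old tumor group 6, named for the age of the host mouse. No age in weeks or months, strain, sex, treatment or implantation site is in the labels, nor whether any pieces of an age shared a mouse. P-values here therefore measure the spread between pieces.

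Insulin-like growth factor 1 is a secreted hormone made by the liver and, locally, by stromal and myeloid cells. It activates the IGF1 receptor, a tyrosine kinase related to the insulin receptor, which signals through Irs adaptors, phosphoinositide 3-kinase and Akt toward growth and survival. Binding proteins hold most of the ligand outside cells, lengthen its life and limit its access to the receptor, and proteases such as pappalysin release it again. Igfbp7 binds the ligand only weakly and is known as a protein of vascular matrix. In pancreatic tumors, stromal IGF1 is known as a growth signal to the carcinoma cells.

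The tumors carried far more transcript for binding proteins than for ligand or receptors. Igfbp4, Igfbp7 and Igfbp3 had median levels of 1070, 927 and 368 TPM over the 12 libraries, higher than 99.2%, 99.1% and 97.7% of the 16013 tested genes. The other members had medians between 4.63 TPM (Igfbp2) and 18.6 TPM (Insr). The sequences before the start sites of the 3 abundant members are shown because these genes supply nearly all binding protein transcript. They come from RefSeq (GRCm38.p6, the assembly of mm10) and are the 250 bases before the annotated start, 5′ to 3′ on the gene's strand, none of them in an exon of GENCODE M21. Capitals mark TATAAA (the core of a TATA box), CCAAT and GGGCGG (a GC box), searched on both strands. Igfbp4 lies at chr11:99040994-99041243, plus strand, Igfbp7 at chr5:77408046-77408295, minus strand and Igfbp3 at chr11:7213924-7214173, minus strand.
Igfbp4: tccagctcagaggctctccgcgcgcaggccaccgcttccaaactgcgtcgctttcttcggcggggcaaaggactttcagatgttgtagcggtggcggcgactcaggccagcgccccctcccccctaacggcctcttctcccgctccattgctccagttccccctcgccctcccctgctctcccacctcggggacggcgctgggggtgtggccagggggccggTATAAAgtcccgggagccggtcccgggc
Igfbp7: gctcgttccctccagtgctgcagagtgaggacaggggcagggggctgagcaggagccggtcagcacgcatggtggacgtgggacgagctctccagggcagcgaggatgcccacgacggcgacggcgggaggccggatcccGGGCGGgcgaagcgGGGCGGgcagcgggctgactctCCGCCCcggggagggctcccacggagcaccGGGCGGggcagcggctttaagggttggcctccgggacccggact
Igfbp3: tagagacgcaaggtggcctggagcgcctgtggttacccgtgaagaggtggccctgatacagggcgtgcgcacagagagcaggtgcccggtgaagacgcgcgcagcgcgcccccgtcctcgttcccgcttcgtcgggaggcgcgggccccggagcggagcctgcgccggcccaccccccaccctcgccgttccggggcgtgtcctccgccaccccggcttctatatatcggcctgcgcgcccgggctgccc
The window of Igfbp4 held 1 TATAAA, which began 28 bases before the start site. That of Igfbp7 held 4 copies of GGGCGG or its reverse complement and no TATAAA. None of the 3 motifs was found in the window of Igfbp3. Only these exact letters were searched, so variant forms of the motifs were not counted. Among 32851 RefSeq windows of the same length, 12.4% held TATAAA, 33.8% CCAAT and 32.7% GGGCGG. GC content was 69.2%, 74.0% and 73.2% in Igfbp4, Igfbp7 and Igfbp3, against a median of 52.4%. Entries existed for 8 of the 9 members, with none for Insr.

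**Figure D1:**
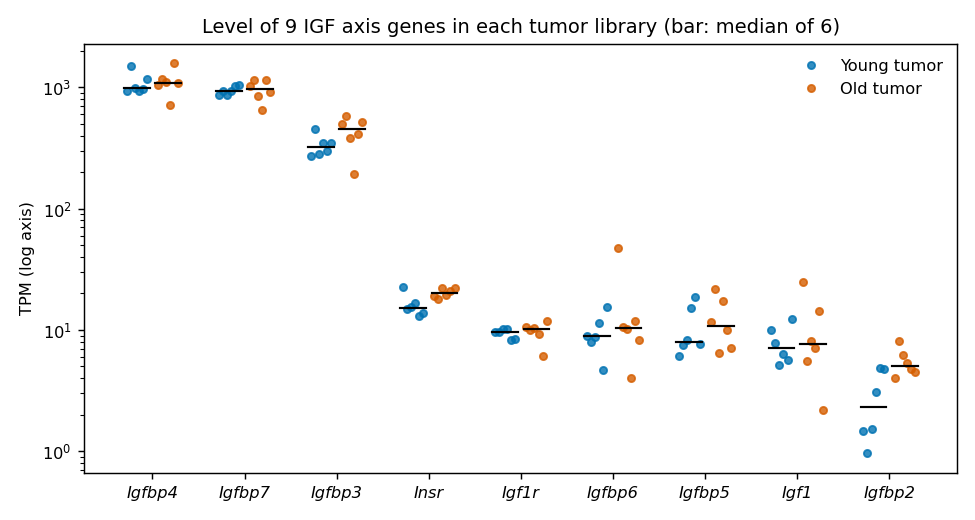
TPM (log axis) of the 9 genes in each of the 6 Young tumor and 6 Old tumor libraries, ordered by the median over all libraries, with a bar at each group's median. The lowest value among Igfbp4, Igfbp7 and Igfbp3 is 192 TPM, and the highest among the other members is 47.5 TPM.

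Levels fell into an abundant and a scarce tier. Igfbp4 lay above Igfbp7 in 11 of 12 libraries, by a median ratio of 1.11 on the TPM scale (range 0.957 to 1.63), so their order was close. Igfbp7 lay above Igfbp3 in 12 of 12 libraries (median ratio 2.7), and Igfbp3 above Insr in 12 of 12 (median ratio 22). Insr lay above Igf1r in 12 of 12 libraries, at a median ratio of 1.80. Below Insr the order was not fixed. Igf1r exceeded Igfbp6 in 7 of 12 libraries, Igfbp6 exceeded Igfbp5 in 8 and Igfbp5 exceeded Igf1 in 6. The ratios of these neighbours ran from 0.222 to 2.31, 0.232 to 4.09 and 0.466 to 3.94. The order of levels was not tested. Igf1 exceeded Igfbp2 in 10 of 12 libraries.

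Nearly all binding protein transcript came from 3 genes at both ages. The summed level of the 6 binding proteins was 2383 ± 312 TPM in the young group against 2537 ± 547 TPM in the old (SD, n = 6 each), lowest at 1586 in Old tumor 4 and highest at 3161 in Old tumor 5. Igfbp3, Igfbp4 and Igfbp7 together made up 98.7% to 99.4% of it in young and 97.6% to 99.2% in old libraries. Igfbp4 alone supplied 45.2% ± 3.69 in young and 44.1% ± 3.91 in old, and Igfbp7 39.9% ± 4.13 and 37.9% ± 2.11 (SD, n = 6 each). The share of Igfbp3 was 14% ± 1.35 in young and 16.7% ± 3.48 in old (SD, n = 6 each), and in old libraries it ran from 12.1% in Old tumor 4 to 20.3% in Old tumor 6. These shares are descriptions and were not tested.

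**Figure D2:**
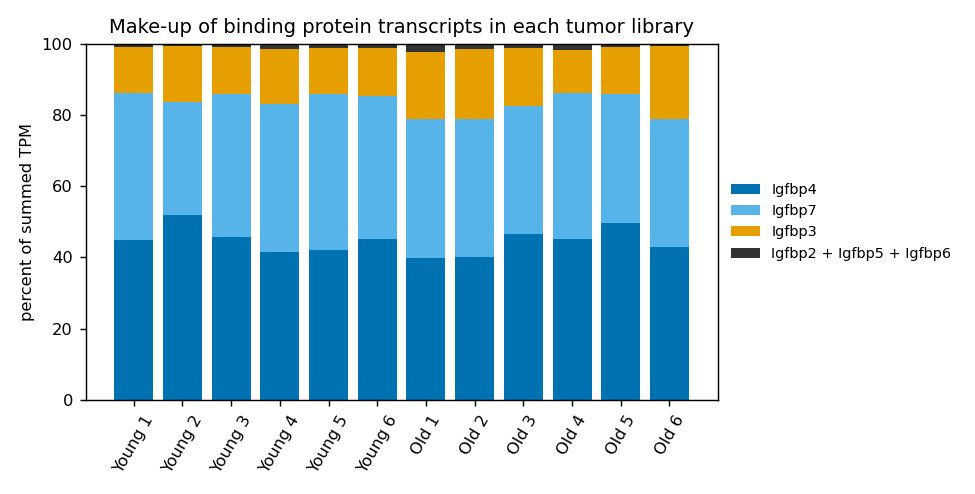
Share of each binding protein gene in the summed binding protein TPM of each library (bars add up to 100%). Igfbp4 is the largest segment in 11 of 12 libraries, and Igfbp2, Igfbp5 and Igfbp6 together form the thin dark segment at the top.

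Old was set against young to ask whether these genes differ with the age of the host, in a study whose title concerns the aging microenvironment. None of the 9 passed an adjusted p of 0.05 in edgeR's quasi-likelihood test, where 2.26% of all tested genes passed in either direction, 0.793% of them higher and 1.47% lower in old. At an unadjusted p under 0.05 there were 2 of the 9, Insr and Igfbp2, both higher in old, beside 21.1% of all genes in either direction and 10.7% in the higher one. DESeq2 called 1 member, Insr, beside 8.34% of its 16561 genes with an adjusted p, and limma-voom with quality weights for the libraries also called Insr, beside 6.1% of all genes. Without those weights limma-voom called no member. Of the 9 log2 fold changes 6 were above 0 and 3 below, with a median of 0.22, that of Igfbp3, beside 0.03 for all tested genes. In no member did the old and young libraries separate fully on the CPM scale (counts scaled to a common library total, with TMM factors), beside 2.97% of all tested genes that did.

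**Figure D3:**
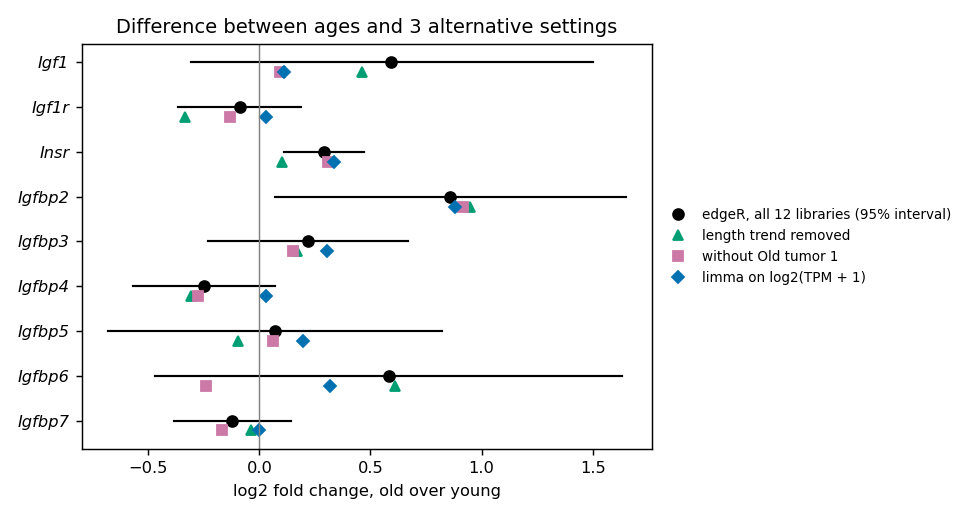
Log2 fold change of each gene, old over young, from edgeR with its 95% interval (black) and under 3 alternative settings (coloured points). The intervals of Insr (0.11 to 0.47) and Igfbp2 (0.07 to 1.65) lie above 0, and the point of Insr moves to 0.10 when the trend with gene length is removed.

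Igf1 (ENSMUSG00000020053; chr10:87858265-87937042, mm10), the ligand, was scarce and varied more than most genes. In young libraries it ran from 9.91 to 24.8 CPM with a median of 16.0, and in old libraries from 5.91 to 62.8 CPM with a median of 19.5. Both the highest and the lowest of the 12 libraries were old, Old tumor 1 at 62.8 CPM and Old tumor 6 at 5.91, so the ages overlapped. On the log2 scale the change was 0.59 (SE 0.42, 95% interval −0.31 to 1.5, edgeR adjusted p = 0.437), with 5 of 6 old libraries above the young median. It was 0.09 without Old tumor 1 and 0.80 without Old tumor 6 (edgeR adjusted p = 0.898 and 0.221). It was −0.14 without Old tumor 1 and Old tumor 5, and 0.11 on log2(TPM + 1). On counts, limma-voom gave 0.38 without library weights and 0.05 with them, where Old tumor 1 had a weight of 0.515. The pooled SD of log2 CPM within an age was 0.864, larger than in 94.9% of tested genes, whose median was 0.237. Igf2, the gene for the other ligand, lay at 0.31 to 2.93 TPM over all libraries.

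The ratio of binding protein to ligand transcript was lowest and highest in single old libraries. Summed binding protein TPM was 209 to 420 times that of Igf1 in young libraries and 106 to 1161 times in old ones. The ends of the old range were Old tumor 1 and Old tumor 6, and the other 4 old libraries lay at 219 to 533.

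Insr (ENSMUSG00000005534; chr8:3122061-3279617), the insulin receptor, was the member nearest to a call. It ran from 64.0 to 87.6 CPM in young libraries with a median of 71.7, and from 78.6 to 98.7 CPM in old ones with a median of 90.8. The ages overlapped only through Young tumor 1 at 87.6 CPM, which lay above Old tumor 1 at 78.6 and Old tumor 6 at 84.5. The other 5 young libraries lay below every old one, and 4 old libraries lay above every young one. Its log2 fold change was 0.29 (SE 0.08, 1.22-fold, edgeR adjusted p = 0.0745), with 6 of 6 old libraries above the young median. Insr passed with DESeq2 (0.28, adjusted p = 0.0255), with limma-voom with quality weights (0.28, adjusted p = 0.04) and, in edgeR, without Old tumor 1 (0.31, adjusted p = 0.0384). Without Old tumor 1, 1106 of 16124 tested genes passed in edgeR, beside 362 of 16013 with all 12 libraries. With the trend of fold change on gene length removed Insr was at 0.10 (SE 0.08, edgeR adjusted p = 0.582), and at 0.12 with annotated exon lengths (edgeR adjusted p = 0.451). Insr has 13746 bases of annotated exon, in the longest of 10 equal length classes of tested genes, where the median log2 fold change was 0.16 against −0.18 in the shortest class. Without the weights limma-voom gave 0.29 (adjusted p = 0.073). On the TPM scale Young tumor 1 was the highest of the 12 libraries at 22.7, and old libraries ran from 18.1 to 22.1. There too 5 young libraries lay below every old one. Limma on log2(TPM + 1) gave 0.34 (adjusted p = 0.107). Over 28 alternatives the adjusted p ran from 0.0185 to 0.582 and every value stayed above 0.

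Igf1r (ENSMUSG00000005533; chr7:67952827-68233668), the receptor for the ligand, ran from 57.2 to 75.0 CPM in young libraries with a median of 69.8. Old libraries ran from 40.1 to 76.6 CPM with a median of 65.3, and 4 of them lay within the young range. Old tumor 5 stood apart at 40.1 CPM, below the next old library at 61.7. Old over young, the log2 value was −0.09 (SE 0.13, 95% interval −0.37 to 0.19, edgeR adjusted p = 0.732), and 0.03 without Old tumor 5. The interval leaves out a fold below 0.776 or above 1.14. Igf1r is in the same length class as Insr, and with the length trend removed its value was −0.34.

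The balance of the receptor transcripts was also compared. On the CPM scale the ratio of Insr to Igf1r was 1.01 to 1.23 in young libraries with a median of 1.05, and 1.10 to 2.46 in old ones with a median of 1.41. Old tumor 5 had the highest ratio, where Igf1r was lowest and Insr highest. On the TPM scale the ratio was 1.51 to 2.37 in young and 1.80 to 3.43 in old libraries, and the ages overlapped through Young tumor 1. The ratio was not tested.

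**Figure D4:**
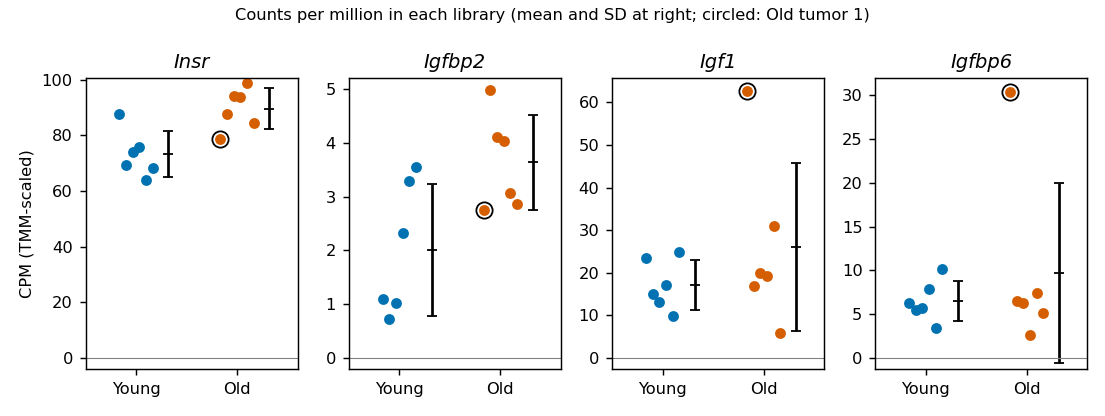
CPM of Insr, Igfbp2, Igf1 and Igfbp6 in each library, with the mean and SD of the 6 libraries of an age at the right of its points and Old tumor 1 circled. All 6 old libraries lie above the young median for Insr and for Igfbp2, neither of which passed adjustment, and Old tumor 1 is the highest library for Igf1 and Igfbp6, at 62.8 and 30.4 CPM.

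Igfbp2 (ENSMUSG00000039323; chr1:72824503-72852474), a binding protein with an integrin-binding motif that is abundant in fetal tissue, was the scarcest member. Its counts were 15 to 121 per library, so counting error weighs on each value. Young libraries ran from 0.722 to 3.55 CPM with a median of 1.71, and old ones from 2.75 to 4.99 CPM with a median of 3.55. Young tumor 1, 2 and 3 lay at 1.10, 0.722 and 1.02 CPM, and Young tumor 4 at 2.32, all below every old library, while Young tumor 5 and 6 lay among the old ones. Its log2 fold change was 0.86 (SE 0.37, 1.81-fold, edgeR adjusted p = 0.202), with 6 of 6 old libraries above the young median. It did not pass in any of 28 alternatives (adjusted p 0.0648 to 0.333), and its value stayed between 0.68 and 1.16.

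Igfbp5 (ENSMUSG00000026185; chr1:72857932-72874884), a binding protein that attaches to extracellular matrix, lies 5.46 kb from Igfbp2 on the opposite strand, tail to tail. It ran from 22.2 to 77.5 CPM in young and from 23.0 to 73.1 CPM in old libraries, with medians of 30.1 and 38.3. At both ages 2 libraries lay well above the others: Young tumor 4 and 5 at 59.3 and 77.5 CPM, and Old tumor 2 and 4 at 73.1 and 63.1 CPM. The log2 fold change was 0.07 (SE 0.35, 95% interval −0.68 to 0.82, edgeR adjusted p = 0.93), and its sign changed with the libraries left out. Across 12 libraries log2 CPM of Igfbp2 and Igfbp5 had a Pearson r of 0.444 (permutation p = 0.149, adjusted over 36 pairs p = 0.660) and a Spearman rho of 0.294 (permutation p = 0.353, adjusted p = 0.754). Without the 2 libraries farthest from the median of Igfbp2, r was 0.420.

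Igfbp6 (ENSMUSG00000023046; chr15:102144362-102149511), which prefers Igf2 as its ligand, was, like Igf1, highest in Old tumor 1. It ran from 3.43 to 10.2 CPM in young libraries with a median of 5.98. In old libraries it ran from 2.58 to 30.4 CPM with a median of 6.36, and the next highest after Old tumor 1 was Old tumor 5 at 7.38. The log2 fold change was 0.58 (SE 0.49, 95% interval −0.47 to 1.63, edgeR adjusted p = 0.524), −0.24 without Old tumor 1 and 0.78 without Old tumor 4. Its pooled SD of log2 CPM within an age, 0.896, exceeded that of 95.5% of tested genes.

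Markers of stromal cells were also highest in Old tumor 1. The summed level of 15 fibroblast markers was 667 to 1545 TPM in young and 629 to 4322 TPM in old libraries, with Old tumor 1 at 4322 and no other old library above 2018. All 15 were tested and none passed in edgeR, where 2.26% of all tested genes passed. At an unadjusted p under 0.05 in edgeR there were 2, both higher in old, beside 10.7% of all genes in that direction. The median log2 fold change of the 15 was 0.66, beside 0.03 for all genes. Sums of 12 smooth muscle and pericyte, 12 endothelial, 12 macrophage and 10 adipocyte markers were highest in Old tumor 1 too, at 748, 528, 2804 and 793 TPM against at most 247, 369, 1624 and 283 in other old libraries. Their young ranges were 121 to 190, 184 to 255, 1073 to 1891 and 139 to 172 TPM. No marker of these 5 lists was at 0 in all libraries, and the defining adipocyte gene Adipoq ran from 0 to 40.3 TPM. The sum of 12 epithelial markers was lowest there, at 5429 TPM, against 5511 to 9518 in young libraries and 6847 to 8705 in other old ones. The part of these cells in the values of Igf1 and Igfbp6 was not tested, and in bulk RNA a change in cell number cannot be told apart from a change in RNA per cell. The labels call the cell type epithelial, and Krt8 lay at 1207 to 2203 TPM, but the fibroblast collagen gene Col1a1 lay at 103 to 773 TPM, so the pieces hold stroma.

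Igfbp3 (ENSMUSG00000020427; chr11:7206086-7213923), the main carrier of the ligand in blood, had 6649 to 19298 counts per library. Young libraries ran from 417 to 703 CPM with a median of 505, and old ones from 277 to 796 CPM with a median of 642. Old tumor 1, 2 and 6 lay above every young library, while Old tumor 4 was the lowest of all 12. Igfbp3 had a log2 fold change of 0.22 (SE 0.21, 95% interval −0.23 to 0.67, edgeR adjusted p = 0.576), and 0.37 without Old tumor 4 (edgeR adjusted p = 0.177). Its neighbour Igfbp1, 3.54 kb away, reached at most 22 counts and did not pass the filter.

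Igfbp4 (ENSMUSG00000017493; chr11:99041244-99054392), an inhibitory binding protein that pappalysin cleaves, ran from 1567 to 2540 CPM in young and from 1061 to 1955 CPM in old libraries. The medians were 1720 and 1530 CPM, and 5 of 6 old libraries lay below the young median. Young tumor 2 was the highest and Old tumor 4 the lowest. Igfbp4 had a log2 fold change of −0.25 (SE 0.15, 95% interval −0.57 to 0.07, edgeR adjusted p = 0.353), −0.14 without Young tumor 2, and 0.03 on log2(TPM + 1), where the direction was lost.

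Igfbp7 (ENSMUSG00000036256; chr5:77349240-77408041) was the steadiest binding protein. It ran from 567 to 745 CPM in young and from 420 to 711 CPM in old libraries, with medians of 639 and 611. Old tumor 4 at 420 CPM was the lowest of 12. Igfbp7 had a log2 fold change of −0.12 (SE 0.12, 95% interval −0.38 to 0.14, edgeR adjusted p = 0.601). Old tumor 4 was the lowest library for Igfbp3, Igfbp4, Igfbp6 and Igfbp7. It also had the lowest fibroblast, smooth muscle and endothelial marker sums, at 629, 96.7 and 171 TPM. Those sums were next lowest in Young tumor 5, at 667, 121 and 184 TPM. Young tumor 5 had the highest Igfbp7 of 12, at 745 CPM, and the lowest Igfbp6 of the young libraries, at 3.43 CPM. Its Igfbp3 and Igfbp4 were at 491 and 1662 CPM. The part of these cells was not tested.

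Counts and TPM of a gene differ by its effective length in each library, which was compared between the ages. Effective length is the mean number of positions a read could start from, averaged over the isoforms RSEM assigned, here taken as counts per TPM relative to the library's median gene. Igf1 had 1.46 ± 0.275 in the young group against 1.87 ± 0.234 in the old (SD, n = 6 each), 0.37 apart on the log2 scale (exact permutation test, p = 0.0152, adjusted p = 0.391). Igfbp4 had 1.11 ± 0.0663 and 1.0 ± 0.0675 (SD, n = 6 each), −0.15 on the log2 scale (exact permutation test, p = 0.0173, adjusted p = 0.406). Of 15030 genes with a value in every library none (0%) passed adjustment and 9.14% had an unadjusted p under 0.05. Neither difference passed adjustment. With 924 splits the exact permutation test cannot give a p below 0.00216. Over 15030 genes adjustment could be passed only if very many genes reached that floor. The lack of calls therefore does not show that effective lengths were alike at the 2 ages. Igfbp3, Igfbp6 and Igfbp7 had effective lengths that varied by at most 1.02-fold between libraries, and Igf1 by 2.07-fold.

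No pair of members moved together past adjustment. Of 36 pairs 3 had an unadjusted permutation p under 0.05 and none passed adjustment over the pairs, and r was above 0 in 19. Igf1 and Igfbp6 had r = 0.719 (permutation p = 0.0158, adjusted p = 0.284) and rho = 0.706 (permutation p = 0.0126, adjusted p = 0.326). Within young libraries their r was 0.852 (exact permutation p = 0.0319) and within old 0.687 (exact permutation p = 0.111). It was 0.504 without Old tumor 1 and Old tumor 6, the farthest from the median of Igf1. Igfbp4 and Igfbp7 had r = 0.713 (permutation p = 0.0145, adjusted p = 0.284) and rho = 0.678 (permutation p = 0.0181, adjusted p = 0.326), and 0.734 without Young tumor 2 and Old tumor 4. Within old libraries r was 0.961 (exact permutation p = 0.00139) and within young ones 0.0438 (exact permutation p = 0.929), and the contrast of these values was not tested. Igfbp3 and Igfbp7 had r = 0.616 (permutation p = 0.0371, adjusted p = 0.445) and rho = 0.357 (permutation p = 0.256, adjusted p = 0.754), and r = 0.0361 without Old tumor 2 and Old tumor 4, so it rested on those libraries. Within an age it was 0.293 in young and 0.837 in old libraries (exact permutation p = 0.578 and 0.0306). The p-values within an age are not adjusted, and these 3 pairs were picked by their p over the same 12 libraries. The lowest, 0.00139, is the smallest that exact permutation of 6 libraries can give.

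**Figure D5:**
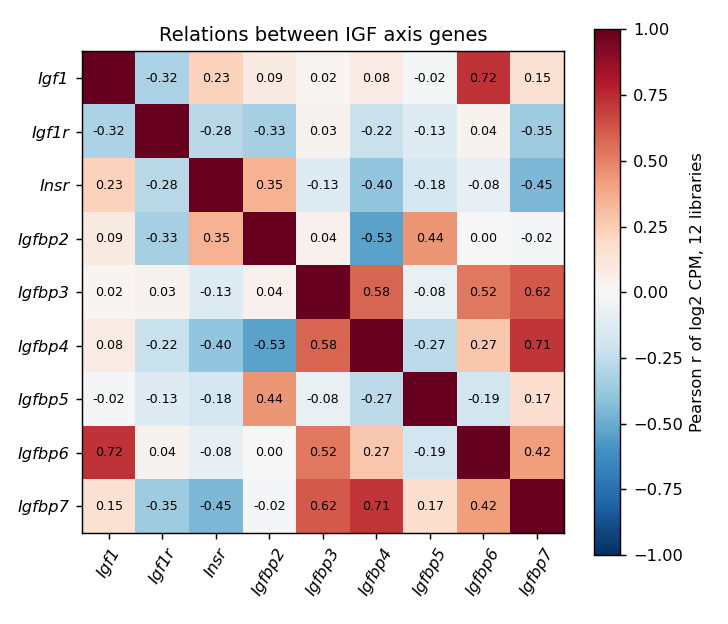
Pearson r of log2 CPM between the 9 genes over 12 libraries (red above 0, blue below 0). The highest values are those of Igf1 with Igfbp6 (0.72) and Igfbp4 with Igfbp7 (0.71), and none passed adjustment over the 36 pairs.

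Genes of like pattern were the 3 with the highest r to each member among 10981 other genes of at least 5 CPM. These r are a description over 12 libraries that differ in depth and in their marker sums. For Igf1 they were Serpina3n (r = 0.946), Lmo2 (0.943) and Sfrp2 (0.941), and for Igfbp6 Gpx7 (0.983), P3h3 (0.972) and Wnt4 (0.968). Without Old tumor 1 these r were 0.907, 0.901, 0.895, 0.950, 0.947 and 0.915. For Insr they were Zfp318 (0.939), Herc2 (0.930) and Wdr13 (0.929), and with each age centred on its mean 0.856, 0.829 and 0.853. Of these 3, Herc2, a large ubiquitin ligase gene, had a log2 fold change of 0.44 (edgeR adjusted p = 0.0364). Zfp318 and Wdr13 were at 0.39 and 0.34 and did not pass (edgeR adjusted p = 0.055 and 0.084). All 3 were picked by their r to Insr in the same libraries. Igf1r was closest to Wdfy1 (0.951), Snhg1 (0.911) and Runx2 (0.891), and Igfbp2 to Mroh1 (0.899), Hdac11 (0.897) and Rab11fip5 (0.884). Igfbp3 was closest to the smooth muscle cytoskeletal gene Smtn (0.921), Rasl11b (0.849) and Cd53 (0.847). Igfbp4 was closest to Prkar1b (0.936), Ndfip1 (0.936) and Pafah1b2 (0.935), Igfbp5 to Acaa2 (0.938), Hcfc1r1 (0.810) and Zfand6 (0.809), and Igfbp7 to Aga (0.911), Rab4a (0.899) and Plod3 (0.874).

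Other genes of the pathway were taken from a list of 66, of which 60 passed the filter. None of the 60 passed in edgeR. DESeq2 called 5 of the 62 to which it gave an adjusted p, 8.06% beside 8.34% of all its genes. With quality weights limma-voom called 2 of 60, 3.33% beside 6.1%, and without them none. At an unadjusted p under 0.05 in edgeR 12 were higher and 3 lower, beside 10.7% and 10.4% of all genes, and 40 of 60 lay above 0. The median log2 fold change was 0.08, beside 0.03 for all genes. With the length trend removed, 7 of the 60 had an unadjusted p under 0.05 in place of 15.

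The smallest p-values of the list were those of Mtor and Tsc1, downstream of Akt. Mtor, the kinase that drives protein synthesis, was at 0.31 (SE 0.08, edgeR adjusted p = 0.0606), and Tsc1 and Tsc2, which restrain it, at 0.29 (SE 0.08, edgeR adjusted p = 0.063) and 0.20 (SE 0.07, edgeR adjusted p = 0.108). Eif4ebp1, a translation repressor that the kinase switches off, was at −0.25 (SE 0.08, edgeR adjusted p = 0.0907). Of 20 tested genes in this branch 15 lay above 0, and their median log2 fold change was 0.12, beside 0.03 for all genes. At an unadjusted p under 0.05 in edgeR 6 were higher and 1 lower, beside 10.7% and 10.4% of all genes. Of 14 tested adaptors 8 lay above 0. Among them Socs2, a feedback inhibitor of growth hormone signalling, was at −0.35 (SE 0.13, edgeR adjusted p = 0.154), with Sh2b1, Shc1 and Grb10 at 0.21, 0.17 and 0.67. Sesn3 and Stat5a were at 0.21 (SE 0.07, edgeR adjusted p = 0.0994) and 0.41 (SE 0.16), and Ddit4 and Stat5b at −0.22 and 0.20.

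Near the receptors, Insrr, an orphan relative of the insulin receptor, was at 1.48 (SE 0.45, edgeR adjusted p = 0.0898) with at most 46 counts per library. Igf2r, which clears Igf2 from the cell surface, was at 0.29 (SE 0.09, edgeR adjusted p = 0.0926). The antisense transcript Airn overlaps Igf2r and rose from 2.96 to 5.94 CPM (edgeR adjusted p = 0.0352), while Igf2r lay at 110 ± 10.9 CPM in young and 135 ± 16.3 in old (SD, n = 6 each). The libraries are directional but the strand setting of the counting is not given, so it is not known whether reads of the overlap were separated. Igf2 and Ins2 were at −0.36 (SE 0.60) and −0.33 (SE 1.22). Of 9 tested genes that release or guard the ligand 5 lay above 0. Among them Pappa, the protease of Igfbp4, was at 1.32 (SE 0.61, edgeR adjusted p = 0.232) and its inhibitor Stc1 at −0.62 (SE 0.30). Mmp7, a protease of epithelial cells, was at −1.58 (SE 0.60, edgeR adjusted p = 0.156) and Adam12 at 0.49 (SE 0.24). Igf2bp1, Igf2bp2 and Igf2bp3, which bind Igf2 mRNA, were at 0.00, 0.08 and −0.14.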

How the data were processed

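Poly(A) RNA from 12 tumor pieces went into directional libraries, per the labels' protocols. Per the submitters' processing notes the tools were cutadapt 2.3, STAR 2.7.0d and RSEM 1.3.1, with the mm10 build. Which annotation and strand setting RSEM used is not given in the sources used here. Expected counts deposited by the authors total 17.8M to 24.1M per library and were rounded for testing. TPM was also deposited, for the same 47643 genes.

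Old was compared with young by edgeR 4.0.16 (R 4.3.3): TMM scaling, filterByExpr, the quasi-likelihood test, two-sided, with Benjamini-Hochberg adjustment over 16013 genes at 0.05. Each SE is the absolute log2 fold change divided by the square root of F. Log2 CPM used a prior count of 2. Relations between members used 100000 resamples, or exact permutation within an age. Effective lengths were compared over 924 splits, a test added after the data were seen. Every fold change is old over young.

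Alternatives were other scalings, filters and thresholds, DESeq2 1.42.0 (independent filtering in place of filterByExpr, or on the edgeR genes), limma 3.58.1 (voom with and without library quality weights), log2 TPM, removal of the length trend (a spline with 4 degrees of freedom), a replicate block and each library left out. Named genes are the members, the 4 pathway genes of smallest p in each sub-list, and the 3 genes of highest r to each member. Airn, Igfbp1, Col1a1, Krt8 and Adipoq were named outside that rule. The members and lists were chosen with earlier results of these data known. The scripts were tested on simulated data.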

Additional observations from a re-analysis of the deposited data

Results flagged for a closer look

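Within an age, log2 CPM of each member was searched for a library far from the others in 18 sets of 6 libraries. In 3 of them the gap from the end library to its neighbour, divided by the whole range, was above 0.625; chance gives about 1 in 20. Igf1r in Old tumor 5 was at 5.33, below the next old library at 5.95 (gap over range 0.667). Igfbp3 in Old tumor 4 was at 8.11, below 9.07 (0.63). Igfbp4 in Young tumor 2 was at 11.3, above 10.8 (0.696).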

How the results depend on the processing

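Of 252 values of the 9 members under alternatives, 230 kept their direction and their side of the threshold, 5 passed it and 17 changed sign. Insr passed with DESeq2 on its own filter (0.282) and on the genes edgeR tested (0.284), limma-voom with quality weights (0.279) and a threshold of 0.1 (0.291). The members called numbered 1 in each of those settings and 0 to 1 with 1 library left out. Signs changed on log2(TPM + 1) and log2(TPM + 0.1) for Igf1r (0.0285 and 0.0287) and Igfbp4 (0.0288 in both), with limma-voom with quality weights for Igfbp6 (−0.0859; 0.201 without weights, which are 0.492 to 1.83 and 0.515 for Old tumor 1), and with the length trend removed for Igfbp5 (−0.0982, or −0.00544 with annotated exon lengths). Without Old tumor 1 and Old tumor 5, chosen after seeing the data, Igf1 was at −0.142, Igf1r at 0.00901 and Igfbp6 at −0.338. With 1 library left out, values ran from 0.0913 to 0.80 for Igf1, −0.148 to 0.0251 for Igf1r, 0.255 to 0.346 for Insr, 0.684 to 1.10 for Igfbp2, 0.124 to 0.368 for Igfbp3, −0.316 to −0.142 for Igfbp4, −0.142 to 0.346 for Igfbp5, −0.24 to 0.78 for Igfbp6 and −0.172 to −0.0378 for Igfbp7. Sign changes there were Igf1r without Old tumor 5 (0.0251), Igfbp6 without Old tumor 1 (−0.24), and Igfbp5 without Young tumor 1 (−0.0569), 2 (−0.0135) or 6 (−0.0131), or Old tumor 2 (−0.142) or 4 (−0.0672). The cause was not tested. Both runs that hold the filter or the weights fixed were added after seeing the data.

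Over all genes 362 passed, 127 higher and 235 lower, against 152 and 143 with total counts and 291 and 48 on log2(TPM + 1), which moved the median of all genes to 0.13. The number was 1381 with DESeq2, 1425 with DESeq2 on the genes edgeR tested, 977 with limma-voom with quality weights, 325 without the weights, 151 with no filter, 1256 at 0.1, 2 with the length trend removed (112 with annotated exon lengths, added after seeing the data), 742 without Old tumor 1 and Old tumor 5, and 2 to 1106 with 1 library left out. Pathway genes called, 0 in edgeR, were 1 with upper-quartile scaling, total counts, the stricter filter and either TPM setting, 5 with DESeq2, 6 with DESeq2 on the genes edgeR tested, 2 with limma-voom with quality weights, 0 without, 6 at 0.1, 1 without Old tumor 1 and Old tumor 5, and 0 to 3 with 1 library left out. With a replicate block 1 gene passed. In libraries sharing a number, deviations from the age means had correlations of −0.23 to 0.139. Of 6 young libraries 2 correlated best with their own number. Whether the numbers pair the libraries was not tested, and these few values cannot settle it. Igfbp2, at 15 to 121 counts, is the member most limited by depth.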
